A study of Mus musculus with 6 samples.

Results

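Plau, Plaur, Plat, Serpine2 and F3 encode the proteases, the receptor and the inhibitor that start and restrain plasmin formation, together with the trigger of coagulation. They were taken from the deposited table by gene symbol, and all 5 were found among its 22274 genes. Each of the 5 passed the filter on low counts, which left 13248 genes for testing. The rule names them by function and uses no measured value, but the members were chosen with earlier results of these data known.

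The series holds 6 RNA-seq libraries of mouse cells labelled as primary renal fibroblasts, cultured from kidney. In 3 libraries the cells had received siRNA against Prune2, and in 3 a scrambled control siRNA. Both groups were treated with TGF-β at 5 ng/ml for 48 h, a cytokine that drives fibroblasts towards contractile, matrix-producing myofibroblasts, so no value here measures the response to TGF-β itself. The sources used here state no strain, age, number of animals or siRNA sequence. Nor do the labels say whether replicates were separate cultures, so each p-value reflects only how much these libraries varied, and that variation may be technical.

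Plasminogen is a circulating zymogen that urokinase (Plau) and tissue plasminogen activator (Plat) cut into plasmin, a protease that dissolves fibrin and degrades matrix proteins. Urokinase acts mainly on the cell surface, held by its receptor (Plaur), while tissue activator works best on fibrin and is made in quantity by endothelium. Protease nexin-1 (Serpine2) is a serpin that traps thrombin and both activators. Tissue factor (F3) is the membrane receptor for factor VII that starts the extrinsic coagulation pathway. In kidney, urokinase is made by tubular epithelium, and the system is studied for its part in fibrosis.

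The 2 activators are relatives with the same catalytic machinery, and they were the 2 of the 5 genes that moved beyond the threshold, in opposite directions. Their coding sequence around the catalytic serine is printed to show how alike they are, with the serine codon in capitals.
Plau, chr14:20842274-20842327, plus strand, exon 11 of 11: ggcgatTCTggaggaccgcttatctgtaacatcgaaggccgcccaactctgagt
Plat, chr8:22781948-22782001, plus strand, exon 14 of 14: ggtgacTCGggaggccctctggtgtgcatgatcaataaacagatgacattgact
These stretches come from the protein-coding transcripts Plau-201 and Plat-201 of GENCODE M21 on GRCm38. Aligned without gaps at the serine codon, 30 of 54 bases were identical (55.6%).

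Upstream sequence from RefSeq (GRCm38.p6) was matched for 3 of the 5 genes, Plaur, Serpine2 and F3. The 250 bases before the start were searched on both strands for TGANTCA, the sequence that AP-1 transcription factors bind. It was found in the windows of Plaur and F3, shown here with the matches in capitals because AP-1 sites are known in the human promoters of both genes.
F3, chr3:121723351-121723448, plus strand: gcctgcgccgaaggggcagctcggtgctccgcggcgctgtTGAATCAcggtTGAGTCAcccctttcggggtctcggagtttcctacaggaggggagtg
Plaur, chr7:24462374-24462460, plus strand: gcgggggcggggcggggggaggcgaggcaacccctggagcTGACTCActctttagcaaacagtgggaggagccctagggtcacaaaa
F3 had 2 matches, which begin 146 and 135 bases before the start, and Plaur had 1, which begins 69 bases before it. Of 32851 promoter windows of this length, 6.75% held at least 1 match and 0.338% held 2 or more. The Serpine2 window held 0 matches to this motif. The GC box, GGGCGG, had 6 matches in the Serpine2 window and 3 each in those of F3 and Plaur; 32.7% of windows held at least 1 and 16.7% held 2 or more. A match describes the letters only.

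Prune2 itself had 3.78, 3.19 and 4.44 CPM in the Prune2 siRNA libraries, against 6.49, 7.85 and 6.52 CPM in the control libraries. The groups did not overlap, and the depletion was partial (log2 fold change -0.87, SE 0.15, adjusted p = 0.000214). It was smaller on FPKM: limma on log2(FPKM + 1) gave -0.24 and an adjusted p of 0.180, and a pseudocount of 0.1 gave -0.43 and 0.190. The log2 ratio of mean FPKM, without a pseudocount, was -0.48. Count divided by FPKM and depth implied a mean Prune2 length of 4492 bases with Prune2 siRNA and 5874 bases with control siRNA. The authors' deposited table gives the log2 fold change of the FPKM means, -0.48, and an adjusted p of 0.000249 for Prune2. CPM are counts scaled to a common library size, here after TMM adjustment. Library totals ran from 20075265 to 23234797 counts. Fold changes set Prune2 siRNA over control. Calls rest on edgeR's quasi-likelihood test, with p-values adjusted by Benjamini-Hochberg over all tested genes and a threshold of 0.05. The labelled cell type was set against its markers. Of 11 fibroblast markers, Dcn, Lum and Fap were too low to be tested, with 15, 7 and 10 counts of Dcn in the Prune2 siRNA libraries and 5, 5 and 8 in the control libraries. The epithelial cadherin Cdh1 averaged 997 ± 32.1 CPM with Prune2 siRNA and 1055 ± 26.4 CPM with control siRNA (SD, n = 3 each), and the epithelial keratin Krt8 was at 2208 ± 137 and 2420 ± 52.6 CPM. Summed over 16 tubular epithelial markers, the level was 5451 to 5914 CPM in Prune2 siRNA libraries and 5879 to 6031 CPM in control libraries. Most of this sum came from Krt8, Krt18 and Cdh1. Aqp2 and Slc34a1 were at 0 in all libraries, and Slc12a1 and Umod averaged 0.47 and 1.48 CPM over all libraries. The 11 fibroblast markers summed to 1244 to 1325 CPM with Prune2 siRNA and 1585 to 1666 CPM with control siRNA, most of it from Acta2 and Vim. Vim, of mesenchymal intermediate filaments, averaged 395 ± 26.9 CPM with Prune2 siRNA and 570 ± 31.2 CPM with control siRNA (SD, n = 3 each). Epithelial transcripts were thus abundant in cells labelled as fibroblasts.

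Of the 5 genes, the urokinase gene rose, the tissue activator gene fell, and the receptor, nexin-1 and tissue factor genes were not called. Over all tested genes 10.3% were called, 4.46% higher and 5.83% lower. The median log2 fold change of the 5 was 0.054, beside 0.0042 over all tested genes. The groups did not overlap for Plau, Plat and F3, a separation found in 24.3% of all tested genes.

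Plat had 81.1, 79.8 and 80.3 CPM in the Prune2 siRNA libraries, against 105, 114 and 122 CPM in the control libraries. The 3 Prune2 siRNA values lay close together and below each control value, while the control values were more spread. Plat (chromosome 8, 22757727 to 22782844 on the plus strand of GRCm38) was 1.42-fold lower and fell beyond the threshold (log2 fold change -0.50, SE 0.05, 95% interval -0.60 to -0.40, adjusted p = 2.54e-08). It rested on 5427 counts with Prune2 siRNA and 7241 with control siRNA. The authors' deposited table gives a log2 fold change of -0.49 and an adjusted p of 3.41e-16 for Plat. It ranked 90 by adjusted p among the tested genes, and 598 of them had a lower log2 fold change.

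Plau had 1472, 1334 and 1571 CPM in the Prune2 siRNA libraries, against 1235, 1242 and 1305 CPM in the control libraries. All 3 Prune2 siRNA values were above the control values, but replicate 2 exceeded the highest control library only slightly. Plau (chromosome 14, 20836660 to 20843385 on the plus strand) rose 1.16-fold (log2 fold change 0.21, SE 0.04, 95% interval 0.12 to 0.30, adjusted p = 0.0018). The call depended on the method: DESeq2 gave an adjusted p of 0.0556 and limma on log2(FPKM + 1) 0.0631, while leaving out any 1 library gave 3.77e-05 to 0.0361, over a range of 3.77e-08 to 0.16 across 17 alternatives. The authors' deposited table gives a log2 fold change of 0.22 and an adjusted p of 0.0629 for Plau.

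**Figure D1:**
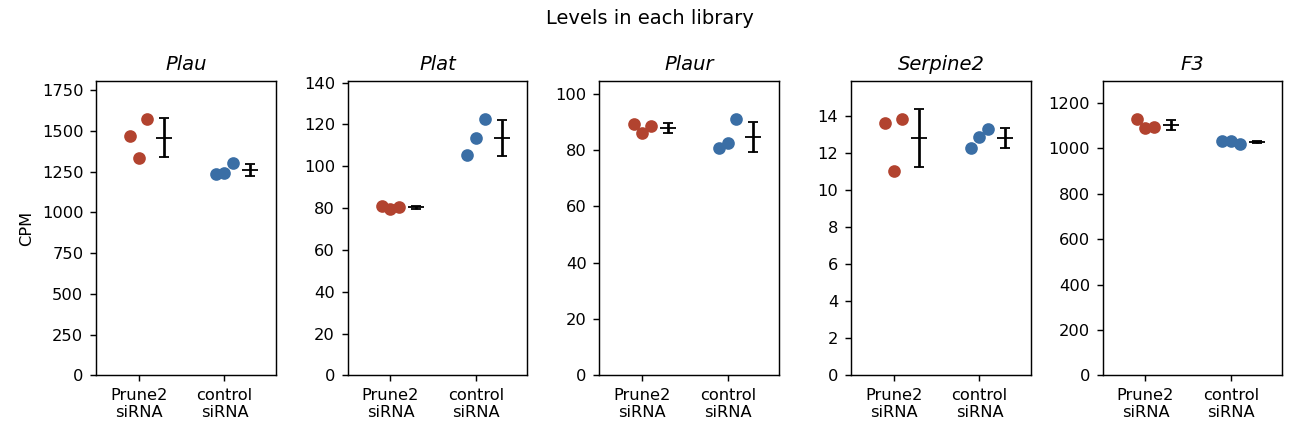
CPM (vertical axis, from 0) of the 5 genes in each library, 1 point per library, with Prune2 siRNA left and control siRNA right in each panel. Black bars give the mean and SD (n = 3 each). The Plat points with Prune2 siRNA, 79.8 to 81.1 CPM, lie below all control points, and the Plau and F3 points lie above theirs.

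The balance of the 2 activators can be given as a ratio within each library, which restates their 2 fold changes in a form that does not depend on scaling between libraries. FPKM are counts scaled to transcript length and depth, so they allow levels of different genes to be set side by side. The ratio of Plau to Plat FPKM was 19.6, 18.0 and 21.1 in the Prune2 siRNA libraries, against 12.7, 11.8 and 11.5 in the control libraries. The log2 ratio differed by 0.71 between the groups, with 4.29 ± 0.11 for Prune2 siRNA and 3.58 ± 0.07 for control siRNA (SD, n = 3 each), and the exact two-sided permutation test gave p = 0.1, the smallest that 3 libraries against 3 allow.

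Plaur, which anchors urokinase to the membrane through a lipid tail, had 89.4, 86.0 and 88.6 CPM in the Prune2 siRNA libraries, against 80.7, 82.5 and 90.9 CPM in the control libraries. Control replicate 3 was the highest of the 6, so the groups overlapped. The log2 fold change of Plaur (chromosome 7, 24462484 to 24475968, plus strand) was 0.054 (SE 0.05, adjusted p = 0.595). Its 95% interval ran from -0.042 to 0.15.
The ratio of Plau to Plaur FPKM, ligand to receptor, was 10.6, 9.95 and 11.4 in the Prune2 siRNA libraries, against 9.82, 9.68 and 9.23 in the control libraries. The groups did not overlap (exact two-sided permutation p = 0.1, the smallest possible), and the log2 ratio differed by 0.15.

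Serpine2, the inhibitor, was the lowest of the 5 and the least precisely measured. It had 13.6, 11.0 and 13.8 CPM in the Prune2 siRNA libraries, against 12.3, 12.8 and 13.3 CPM in the control libraries. Replicate 2 was the lowest of all 6 and the other Prune2 siRNA libraries were the highest, so the groups overlapped. Serpine2 (chromosome 1, 79794197 to 79861180, minus strand) had a log2 fold change of -0.0025 (SE 0.097, adjusted p = 0.993). The 95% interval ran from -0.20 to 0.20, so smaller changes in either direction could not be detected with these libraries, which held 252 to 323 counts with Prune2 siRNA and 251 to 306 with control siRNA. The coefficient of variation of its CPM was 12.2% with Prune2 siRNA and 4.07% with control siRNA.
The ratio of Plau to Serpine2 FPKM was 76.1, 97.4 and 98.7 in the Prune2 siRNA libraries, against 73.6, 88.4 and 82.2 in the control libraries. These ranges overlapped (exact two-sided permutation p = 0.3).

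F3 had 1127, 1089 and 1091 CPM in the Prune2 siRNA libraries, against 1032, 1031 and 1021 CPM in the control libraries. Every Prune2 siRNA value was above every control value, by a margin that was small beside the level. The log2 fold change of F3 (chromosome 3, 121723537 to 121735048, plus strand) was 0.10 (SE 0.03, 95% interval 0.032 to 0.17) with an adjusted p of 0.0574, above the threshold. An adjusted p under 0.05 came from 5 of 17 alternatives, among them DESeq2 (adjusted p = 0.00623) and limma-voom (0.0273), with 0.00623 to 0.207 over all of them. In the authors' deposited table F3 has a log2 fold change of 0.11 and an adjusted p of 0.00705, so that table places F3 under 0.05 and Plau above it.

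**Figure D2:**
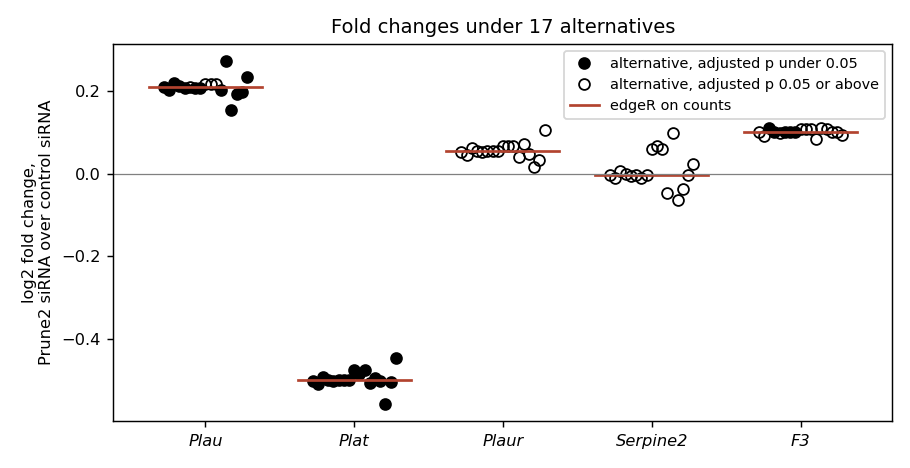
Log2 fold change, Prune2 siRNA over control siRNA (vertical axis), of each gene under 17 alternatives, 1 point each, with the edgeR value as a line. Filled points had an adjusted p under 0.05. Plat was filled in all 17, Plau in 13, F3 in 5, and Plaur and Serpine2 in 0, and the Serpine2 points lie on both sides of 0.

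The 5 genes spanned an 85.3-fold range of level. Per transcript length, Plau averaged 625 ± 53.9 FPKM with Prune2 siRNA and 537 ± 18.0 FPKM with control siRNA, and F3 averaged 591 ± 11.98 and 548 ± 1.98 FPKM (SD, n = 3 each). By mean FPKM over the 6 libraries they ranked 50 and 53 of 22274 genes, and their order was not the same in all libraries. Plaur followed at 58.7 ± 1.37 FPKM with Prune2 siRNA and 56.1 ± 3.76 FPKM with control siRNA. Plat, at 31.9 ± 0.363 and 44.9 ± 3.52 FPKM, was below Plaur in each library. Serpine2 came last at 6.99 ± 1.23 FPKM with Prune2 siRNA and 6.63 ± 0.585 FPKM with control siRNA.

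**Figure D3:**
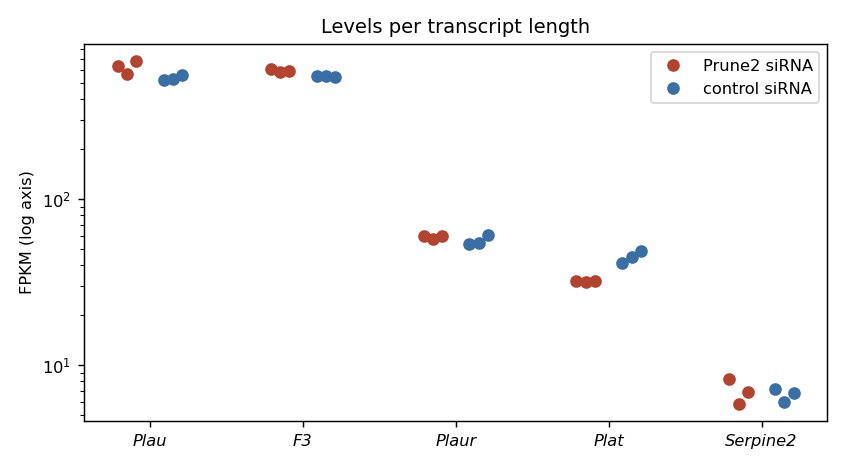
FPKM of the 5 genes (log axis), 1 point per library, with Prune2 siRNA left of control siRNA at each gene. Plau and F3 stand together between 524 and 676 FPKM, Plaur and Plat lie between 31.5 and 60.4 FPKM, and Serpine2 lies between 5.84 and 8.29 FPKM.

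Count divided by FPKM and depth implies a gene length, which can be set beside the annotated transcripts. For Plau it was 2340 to 2342 bases in all 6 libraries, beside 2342 bases for Plau-201, and for Plat it was 2525 bases, the length of Plat-201. Fold changes by count and by FPKM were therefore alike for these genes. For Serpine2 the implied length varied from 1644 to 2029 bases with Prune2 siRNA and from 1711 to 2141 bases with control siRNA, below the 2210 bases of the longest protein-coding transcript, Serpine2-201. No other annotated gene overlapped any of the 5 genes.

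Summed marker levels of endothelium, fibroblasts and leukocytes were lower in the libraries where Plat was lower. By the root mean square difference of centred log2 CPM over the 6 libraries, the genes most like Plat among 10219 genes of at least 5 CPM were Cdh5, the endothelial cadherin (difference 0.036), Pcolce2, a procollagen C-proteinase enhancer (0.051), and Cd200, an immune-inhibitory membrane protein (0.053). Cdh5 averaged 20.4 ± 0.898 CPM with Prune2 siRNA and 28.8 ± 1.63 CPM with control siRNA (SD, n = 3 each). Its log2 fold change was -0.50 (SE 0.07, adjusted p = 8.3e-06). The measure includes the difference between the groups, so a gene chosen by it has a similar fold change by selection. Of 14 endothelial markers, all tested, 7 fell and 0 rose, and their summed level was 119, 124 and 125 CPM in the Prune2 siRNA libraries, against 159, 173 and 168 CPM in the control libraries. Among them Plvap, of endothelial diaphragms, fell 1.74-fold and Emcn, a sialomucin, 1.36-fold. The other 7 were not called: Sox17, an endothelial transcription factor, was higher in all 3 Prune2 siRNA libraries than in the control libraries (log2 fold change 0.48, adjusted p = 0.195), Egfl7 was at 0.039, and Flt1, Tek, Esam, Robo4 and Erg were between -0.49 and -0.18. None of the 14 was at 0 in either group.
Of 8 tested fibroblast markers 4 fell and 0 rose. The sum of the 11 listed, most of it from Acta2 and Vim, was 76.2 to 81.1% of the control mean with Prune2 siRNA. Col1a1 and Col1a2 fell at log2 fold changes of -0.21 and -0.20. Pdgfrb (0.066), Pdgfra (-0.039), Thy1 (-0.22) and S100a4 (-0.30) were not called. Vim fell 1.44-fold (adjusted p = 3.72e-09; log2 fold change -0.53) and Acta2, the smooth muscle actin of myofibroblasts, 1.22-fold (adjusted p = 7.31e-06). In bulk RNA, fewer cells of a type and less RNA per cell cannot be told apart, and which cells carried the Plat reads was not tested.

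The genes most like Plau by the same measure were Dcdc2a, a doublecortin-domain protein of cilia (difference 0.034), Scin, an actin-severing protein (0.034), and the receptor Notch3 (0.035). Dcdc2a averaged 248 ± 14.5 CPM with Prune2 siRNA and 208 ± 5.16 CPM with control siRNA and rose (adjusted p = 5.56e-05), as did Scin (adjusted p = 0.000698), while Notch3 was not called (adjusted p = 0.116). Of 13 tested tubular markers 4 rose and 3 fell, among them Slc12a3, the distal sodium-chloride cotransporter, at a log2 fold change of 1.42, the kidney cadherin Cdh16 at 0.28, the transcription factor Pax8 at 0.22 and Lrp2 at -0.26. The part of tubular RNA in the Plau level was not tested.

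Leukocyte markers were much lower with Prune2 siRNA. Of 19 tested, 18 fell and 0 rose (median log2 fold change -2.61), and none was at 0 in all libraries. The 1 tested marker not called was Cd14 (log2 fold change 0.18, adjusted p = 0.459). Ccr2 was too low to be tested, with 0 counts in each Prune2 siRNA library and 3, 1 and 3 in the control libraries. The 20 listed summed to 53.3 to 55.5 CPM with Prune2 siRNA and 213 to 262 CPM with control siRNA. Macrophages can express Plau, Plaur and F3. In the libraries where that marker sum was 77.6% lower, Plau rose, and Plaur and F3 had log2 fold changes of 0.054 and 0.10. The part of leukocyte RNA in these levels was not tested.

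**Figure D4:**
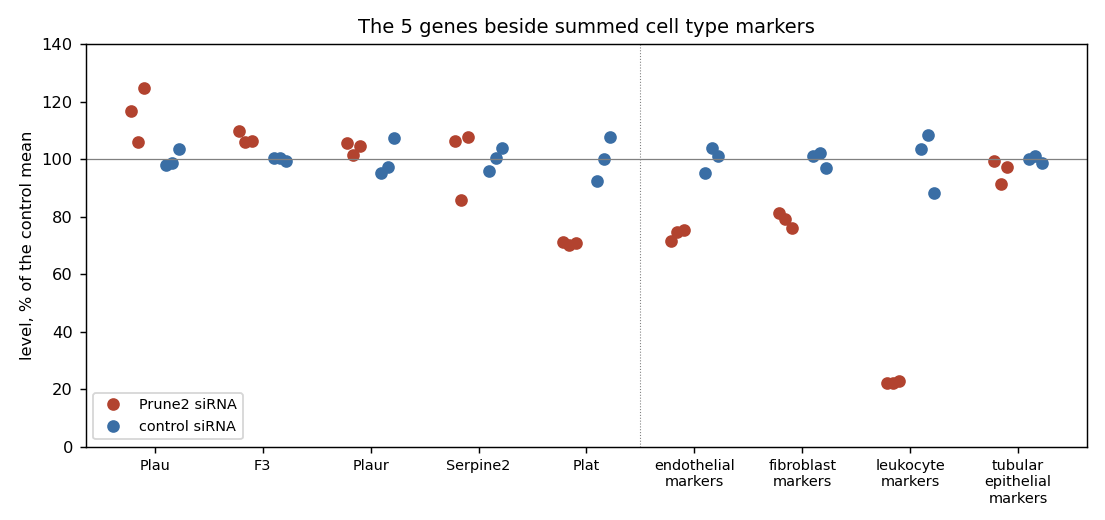
Level of each of the 5 genes and of the summed markers of 4 cell types, in percent of the control mean (vertical axis, from 0), 1 point per library, with Prune2 siRNA left of control siRNA. Plat with Prune2 siRNA, 70.2 to 71.3%, stands just below the endothelial sum, 71.4 to 75.2%, and the fibroblast sum, 76.2 to 81.1%, and leukocyte markers are at 22.1 to 23.0%.

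The partners of the system were described from 5 lists of 60 related genes, of which 42 were tested. Of these, 4 rose, 8 fell and 30 were not called, so 28.6% were called, beside 10.3% of all tested genes, and their median log2 fold change was 0.011. The lists were chosen with earlier results of these data known, so the higher share is not independent of the data. Of the 12 called, 9 lost the call in at least 1 alternative. Plasminogen itself (Plg) had 0, 0 and 0 counts in the Prune2 siRNA libraries and 0, 3 and 0 in the control libraries. Vitronectin (Vtn), factor VII (F7) and factor X (F10) were at 0 in all 6, and a count of 0 allows up to 3 counts in a library, by counting error alone.

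The list of uptake genes and co-receptors of activators and inhibitors includes integrin chains and a chaperone. Of its 12 tested genes 6 fell, 1 rose and 5 were not called, beside 5.83% lower and 4.46% higher over all tested genes. Itgb3, the integrin chain that pairs with the αv chain to bind vitronectin and cooperates with the urokinase receptor, had 158, 157 and 151 CPM with Prune2 siRNA, against 224, 231 and 240 CPM with control siRNA. The groups were far apart, and Itgb3 was 1.49-fold lower (log2 fold change -0.58, SE 0.04, adjusted p = 3.59e-11). Itga5 and Itgb1, the fibronectin receptor chains, fell 1.24-fold (adjusted p = 1.33e-06) and 1.12-fold (0.00195). Itga3, a laminin receptor chain that binds the urokinase receptor, averaged 1387 ± 47.8 CPM with Prune2 siRNA and 1296 ± 15.2 CPM with control siRNA and was not called (adjusted p = 0.0862).
Lrp1, the endocytic receptor that removes activators bound to serpins, had 217, 249 and 226 CPM with Prune2 siRNA, against 274, 280 and 252 CPM with control siRNA, and was 1.16-fold lower (adjusted p = 0.00178). Its chaperone Lrpap1 fell 1.14-fold (adjusted p = 0.0166) and its relative megalin (Lrp2) 1.19-fold (0.00347). Lrpap1 lost the call without Prune2 siRNA replicate 2 (0.0648) or 3 (0.0917) and without control replicate 2 (0.0800). The related receptor Vldlr rose 1.18-fold (adjusted p = 0.00371), so members of the LDL receptor family differed in direction. On log2(FPKM + 1) the adjusted p was 0.371 for Lrp1, 0.483 for Lrpap1, 0.244 for Lrp2 and 0.239 for Vldlr.

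Other proteases, plasminogen-binding proteins and inhibitors formed 2 short lists, each with 1 called gene. Over all tested genes 4.46% were called higher and 5.83% lower. Of 6 tested genes of plasmin generation and plasminogen binding 1 rose and 0 fell. It was Hpn, a transmembrane protease that can activate pro-urokinase, which rose 1.23-fold (adjusted p = 0.0107) and lost the call without Prune2 siRNA replicate 3 (0.148) or control replicate 2 (0.0528). The plasminogen-binding proteins Eno1 and Anxa2 averaged 1020 ± 35.2 and 332 ± 22.1 CPM with Prune2 siRNA, and 951 ± 32.4 and 341 ± 24.8 CPM with control siRNA (SD, n = 3 each), and neither was called. Of 7 tested inhibitors 1 rose and 0 fell. It was Spint1, a Kunitz inhibitor of hepsin and matriptase, which rose 1.11-fold (adjusted p = 0.0117), but gave 0.162 without Prune2 siRNA replicate 3, 0.0588 without control replicate 1 and 0.0748 without control replicate 2. Its relative Spint2 averaged 329 ± 9.97 CPM with Prune2 siRNA and 306 ± 6.63 CPM with control siRNA and was not called (adjusted p = 0.0570).

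Around tissue factor, 1 of 14 tested coagulation genes fell and 1 rose, beside 5.83% lower and 4.46% higher over all tested genes. Tfpi, the inhibitor of the complex of tissue factor with factor VIIa, had 9.01, 9.42 and 8.41 CPM with Prune2 siRNA, against 13.4, 12.9 and 12.7 CPM with control siRNA. The groups were well apart, and Tfpi was 1.45-fold lower (log2 fold change -0.54, SE 0.095, adjusted p = 0.00026). Tfpi is also made by endothelium. Of its 14 listed markers 7 fell in the same libraries and 7 were not called, and the part of those cells was not tested. Gas6, a vitamin K-dependent ligand of receptor kinases, rose 1.13-fold (adjusted p = 0.0247), and lost the call without Prune2 siRNA replicate 1 (0.117) or 3 (0.114) and without control replicate 1 (0.0781) or 3 (0.157), with 0.00709 to 0.161 over 17 alternatives. Of 3 tested protease-activated receptors 1 fell: F2rl1, which tissue factor complexes can cleave, by 1.10-fold (adjusted p = 0.0389). It lost the call without Prune2 siRNA replicate 1 (0.130) or 2 (0.101) and without control replicate 2 (0.0868) or 3 (0.251), with 0.0130 to 0.287 over 17 alternatives.

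**Figure D5:**
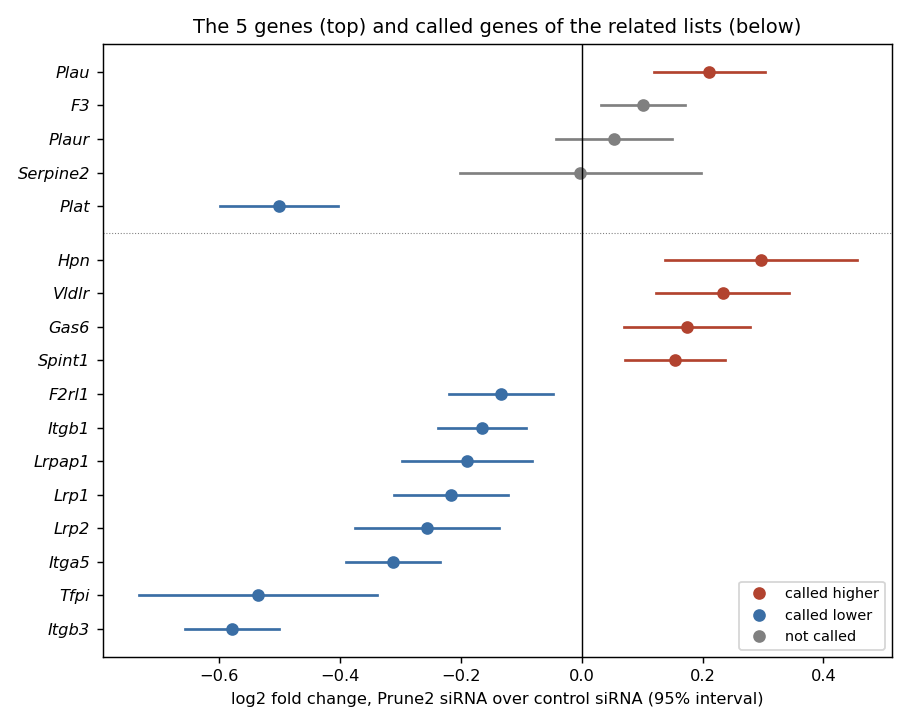
Log2 fold change, Prune2 siRNA over control siRNA (horizontal axis), with its 95% interval, for the 5 genes above the dotted line and for the 12 called genes of the related lists below it. Plat at -0.50, Tfpi at -0.54 and Itgb3 at -0.58 lie farthest below 0, and Plau at 0.21, Vldlr at 0.23 and Hpn at 0.30 lie farthest above.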

How the data were processed

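The deposited table lists 22274 genes. Per the file headers, it gives read counts (whole numbers) and FPKM for each library, the authors' mean FPKM per group, their log2 fold change, their p-value and their adjusted p-value. Per the submitters' processing notes, the builds were GRCm38 and mm10. The aligner, counter, strand setting and the authors' test: not given in the sources used here. Groups and replicate numbers came from the sample titles. The count test was edgeR 4.0.16 under R 4.3.3 (TMM, filterByExpr, glmQLFit, glmQLFTest) over 13248 genes, with no covariate. SE is the log2 fold change divided by the square root of F, without sign. FPKM alternatives used limma 3.58.1 with a pseudocount of 1 or 0.1 and, unless unfiltered, at least 0.5 FPKM in 3 libraries; DESeq2 1.42.0 and limma-voom were run on counts. Ratios were compared by exact permutation with scipy 1.17.1.

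Identifiers were matched to GENCODE M21 symbols (22219 of 22274). Replicates of a group gave 2.57 to 3.92 for chi-square over its degrees of freedom, more than counting error gives, so none was treated as a copy. Named are the 5 genes, Prune2, called genes of the related lists and up to 3 uncalled ones with high levels, leading markers, and for each called member the 3 genes most like it. In the marker lists 2 of 5 podocyte and 1 of 3 platelet markers tested fell and 0 rose. The members and lists were chosen with earlier results of these data known. Some genes of this system are not reported here. In a simulation with 13135 genes, drawn from the means of this comparison, the test found 54% of the 1.2-fold changes, 76% at 1.5-fold, 98% at 2-fold and 100% at 4-fold, with 8 false calls of 172. Changes were placed only in genes above a floor of expected count and pooled over levels. The shares therefore leave out the lowest tested genes and do not give the power for any of the members.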

Additional observations from a re-analysis of the deposited data

How the results depend on the processing

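Plat kept its direction and its call in all 17 alternatives, with log2 fold changes from -0.56 to -0.45. Plau kept its direction in all 17 and lost its call in 4: DESeq2 (0.21), limma on log2(FPKM + 1) (0.22), on log2(FPKM + 0.1) (0.22) and on log2(FPKM + 1) without a filter (0.22). F3 gained a call with library totals only (0.11), no filter (0.10), DESeq2 (0.10), limma-voom (0.10) and the replicate block (0.10, adjusted p = 0.0383). Plaur was not called in any. Serpine2 changed sign with library totals only (0.0068) and on FPKM (0.059 for log2(FPKM + 1) with or without a filter, 0.066 with 0.1), and without Prune2 siRNA replicate 2 (0.098) or control replicate 3 (0.025), with -0.063 to 0.098 when 1 library was left out. Prune2 lost its call on FPKM (-0.24, -0.43 and -0.24 without a filter). Genes called numbered 708, 705 and 593 on FPKM, in the same order, against 1364 on counts, and 997 to 1249 without 1 library; the cause was not tested. Leaving out 1 library gave log2 fold changes of 0.15 to 0.27 for Plau and 0.084 to 0.11 for F3. Of the 12 called related genes, Itga5, Itgb3 and Tfpi kept the call in all 17 alternatives, and 9 lost it in at least 1, with 0 changes of sign.

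Same-numbered deviations correlated at 0.051, -0.012 and 0.025, beside -0.085 to 0.059 for libraries of different number. With 3 libraries per group, these values cannot show whether replicate numbers pair the libraries. With the replicate block 1490 genes were called, against 1364 without it, and the adjusted p of Plau was 5.02e-05. With 1 library left out, 2 remain in a group. Low counts (252 to 323 with Prune2 siRNA) and the spread between libraries both limit Serpine2.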
